A study of Mus musculus with 56 samples.

Results

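The Cyp3a genes of the mouse encode a family of closely related cytochrome P450 enzymes. Of the 23813 genes in the deposited RNA table, 8 make up the group described here, namely Cyp3a11, Cyp3a13, Cyp3a16, Cyp3a25, Cyp3a41a, Cyp3a41b, Cyp3a44 and Cyp3a59. They were taken by symbol from the first row listed for each gene. The family was chosen by its values in the same 12 libraries, since it was picked out with earlier results of these data known. Levels and differences of the 8 genes are therefore given as a description and carry no test. Only 1 further row of the table has a Cyp3a symbol, Cyp3a57, which is described beside them.

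Poly(A) RNA was sequenced from the liver of male mice in 3 groups of 4 mice. Every mouse was kept on food low in iodine that contained propylthiouracil (PTU), an inhibitor of thyroid hormone synthesis. Hypothyroid WT mice received PTU only, and hyperthyroid WT mice were also injected with triiodothyronine (T3) on the last days of the diet. Hypothyroid L-NCOR1ΔID mice received PTU only and express in the liver a mutant of the nuclear receptor co-repressor NCOR1 that lacks the domains for interaction with the thyroid hormone receptor (TR). The mutant line was kept on a mixed C57BL/6;129S background. The study names a WT background only for littermates of another mutant line, and does not state that of the WT mice of these groups. The part of strain in differences between mutant and WT was not tested and cannot be told apart from the mutation. The study gives age as averages over larger groups of mice and not per library. The average was lower in the mutant mice than in both WT groups, and the part of age in the values was not tested. Each library had sequencing runs on both instrument models of the study, so that no group was set apart by instrument.

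CYP3A enzymes are haem proteins of the endoplasmic reticulum that oxidise drugs, steroids and bile acids, with electrons passed on by cytochrome P450 oxidoreductase and cytochrome b5. Cyp3a11 is the main form of the adult mouse liver and a classical target of the pregnane X receptor (PXR, encoded by Nr1i2). Cyp3a16 is known as a form of fetal and neonatal liver, and Cyp3a41 and Cyp3a44 as forms of female liver. Thyroid hormone acts through TR, which recruits the NCoR complex and histone deacetylase when T3 is absent.

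Values are RPKM, which are reads per kilobase of transcript, scaled to the number of aligned reads of the library. The steps between the lowest values of a library return its depth, which was about 21.2 to 42.5 M (mega) reads. At these depths 3 reads correspond to 0.0345 to 0.0691 RPKM for Cyp3a41a, so that values of this size rest on very few reads. Thrsp, Dio1 and Me1, 3 genes known to respond to T3, all rose in hyperthyroid mice (log2 fold change 2.29, 6.20 and 2.52, limma adjusted p = 0.00081, 0.0012 and 7.2e-05). For Ncor1 the mean was 14.7 ± 0.665 RPKM in hypothyroid WT and 12.97 ± 0.844 RPKM in the mutant (SD, n = 4 each, limma adjusted p = 0.20), but RPKM over the whole gene does not report on single exons. Xist was at most 0.033 RPKM and Ddx3y at least 14.1 RPKM in all 12 libraries, as in male tissue.

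Of the 8 genes, 7 lie together with Cyp3a57 on chromosome 5 of mm9, between positions 146106148 and 146924861, a stretch of 818.7 kb. Along the chromosome the order is Cyp3a57, Cyp3a16, Cyp3a41b, Cyp3a41a, Cyp3a44, Cyp3a11, Cyp3a25 and Cyp3a59. Cyp3a57 and Cyp3a59, at the ends, are on the plus strand and the others on the minus strand. Cyp3a13 lies apart, 7.74 Mb away at positions 138334160 to 138362847 of the same chromosome. These positions are those of GENCODE M1, which is on the same build as the files.

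The coding sequences fell into separate families by sequence. Cyp3a11, Cyp3a16, Cyp3a41a, Cyp3a41b and Cyp3a44 were 92.4% to 95.8% identical to each other, apart from Cyp3a41a and Cyp3a41b, which differed at 2 of 1515 bases. Cyp3a25 and Cyp3a59 were 97.5% identical. Cyp3a13 was 74.9% to 76.6% identical to every other member. The share of a transcript that a read of a given length cannot place varied accordingly. For Cyp3a41a, 98.9% of all stretches of 50 bases also occurred in a transcript of another gene or elsewhere in the sequence around the family, and for Cyp3a41b 93.5%. The share was 28.3% for Cyp3a59, 26.8% for Cyp3a25, 24.9% for Cyp3a44, 14.8% for Cyp3a11, 11.8% for Cyp3a16 and 0% for Cyp3a13. With stretches of 100 bases it was 90.8% for Cyp3a41a and 88.2% for Cyp3a41b. It was then 6.05% for Cyp3a59 and for Cyp3a25, 2.84% for Cyp3a44, 0.312% for Cyp3a11 and 0.123% for Cyp3a16. Most reads of Cyp3a41a and Cyp3a41b thus cannot be assigned to 1 of these 2 genes. The study used uniquely aligned reads, so that their levels may be understated. The levels of the other members apart from Cyp3a13 are uncertain as well. For a low member beside an abundant one, the share does not bound this uncertainty.

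The sequence before the transcription start site (TSS) followed the same families. It is shown because the upstream stretches of Cyp3a25 and Cyp3a59 were nearly the same while the levels of the genes differed. Cyp3a16 and Cyp3a44 were alike in sequence and in level. The stretch of Cyp3a41a was also nearly the same as that of Cyp3a44. The levels of this pair cannot be compared, since most of the transcript of Cyp3a41a is shared with other sequence. The stretches are from RefSeq, whose table is on GRCm38.p6, and each had 1 exact match on chromosome 5 of mm9, to which the coordinates refer. All are read 5′ to 3′ on the strand of the gene and end at the base before the TSS, apart from that of Cyp3a11, which ends at position -111 because GENCODE M1 starts this gene further upstream. Capitals mark the letters AGGTCA or AGTTCA, a half-site of nuclear receptors, and CAAAGTCCA, a site of HNF4, on either strand.
Cyp3a16, chr5:146230593-146230842, minus strand: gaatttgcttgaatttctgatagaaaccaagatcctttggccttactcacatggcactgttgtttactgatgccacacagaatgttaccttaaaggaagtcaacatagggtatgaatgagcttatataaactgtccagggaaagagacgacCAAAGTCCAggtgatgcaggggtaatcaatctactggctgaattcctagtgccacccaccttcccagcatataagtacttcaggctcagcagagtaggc
Cyp3a44, chr5:146617451-146617700, minus strand: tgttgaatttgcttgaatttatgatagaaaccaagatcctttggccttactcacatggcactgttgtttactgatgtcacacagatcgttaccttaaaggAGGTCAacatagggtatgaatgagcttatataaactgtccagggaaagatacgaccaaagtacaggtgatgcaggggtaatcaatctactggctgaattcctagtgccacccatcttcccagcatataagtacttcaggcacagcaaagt
Cyp3a41a, chr5:146531713-146531962, minus strand: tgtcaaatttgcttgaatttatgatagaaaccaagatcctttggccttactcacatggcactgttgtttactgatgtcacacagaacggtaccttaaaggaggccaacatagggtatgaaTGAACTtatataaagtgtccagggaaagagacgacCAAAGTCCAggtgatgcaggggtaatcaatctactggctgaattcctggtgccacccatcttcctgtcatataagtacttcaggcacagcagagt
Cyp3a11, chr5:146691541-146691680, minus strand: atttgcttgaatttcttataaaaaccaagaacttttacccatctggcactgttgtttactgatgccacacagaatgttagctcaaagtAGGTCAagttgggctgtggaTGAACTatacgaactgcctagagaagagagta
Cyp3a25, chr5:146821195-146821444, minus strand: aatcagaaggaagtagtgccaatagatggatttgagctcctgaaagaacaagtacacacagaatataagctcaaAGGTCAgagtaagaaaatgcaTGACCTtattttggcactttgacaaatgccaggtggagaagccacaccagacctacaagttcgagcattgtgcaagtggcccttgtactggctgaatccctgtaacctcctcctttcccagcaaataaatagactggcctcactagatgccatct
Cyp3a59, chr5:146890584-146890833, plus strand: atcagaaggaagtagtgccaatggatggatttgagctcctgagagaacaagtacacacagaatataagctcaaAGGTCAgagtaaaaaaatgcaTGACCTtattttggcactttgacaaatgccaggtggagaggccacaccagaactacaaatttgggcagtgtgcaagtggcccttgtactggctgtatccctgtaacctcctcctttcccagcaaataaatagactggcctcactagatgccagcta

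Over 250 bases, Cyp3a16 and Cyp3a44 shared 236 bases, Cyp3a41a and Cyp3a44 also 236, and Cyp3a41a and Cyp3a41b 249. Cyp3a25 and Cyp3a59 shared 238, while Cyp3a25 and Cyp3a16 shared 140. The letters AGGTCA occurred in 4 of 8 members, Cyp3a11, Cyp3a25, Cyp3a44 and Cyp3a59, and in 14.0% of 32536 promoter stretches of the same length. In Cyp3a25 they occurred at positions -176 to -171 and, on the other strand, at -155 to -150. In Cyp3a59 both lay 1 base further from the TSS. AGTTCA occurred in Cyp3a11, Cyp3a41a and Cyp3a41b, and in 11.8% of all stretches. CAAAGTCCA occurred in Cyp3a11, Cyp3a16, Cyp3a41a and Cyp3a41b, and in 0.387% of all stretches. The match in Cyp3a11, at -109 to -101, lies beyond the end of the stretch shown, in the 110 bases that GENCODE M1 places inside the gene. The closest stretch in Cyp3a44 differed from it by C7A, counted from the first base of the motif. Members share these letters by descent and are not independent. The direct repeats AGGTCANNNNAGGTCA and AGTTCANNNAGTTCA, the everted repeat TGAACTNNNNNNAGTTCA and TTCNNNGAA had no match in the window of any member on either strand. Of the 32536 stretches, the 3 repeats occurred in 5, 0 and 2, in this order. Only these exact letters were searched, so that the lack of a repeat in the members is uninformative. TTCNNNGAA occurred in 7.04% of all stretches.

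Cyp3a11 was the member with the highest level in hypothyroid mice of both genotypes. It was 224, 301, 183 and 108 RPKM in the 4 hypothyroid WT libraries. In hyperthyroid WT it was 21.7, 47.8, 115 and 82.9 RPKM. In hypothyroid L-NCOR1ΔID it was 2671, 2492, 2552 and 2482 RPKM. The mutant libraries lay close together and far above all others, while the hyperthyroid libraries spread over 5.33-fold and overlapped the hypothyroid WT range in replicate 3. Mean levels were 204 ± 80.7, 66.9 ± 40.9 and 2549 ± 86.8 RPKM (mean ± SD, n = 4 each). The mean was 12.5-fold higher in L-NCOR1ΔID than in hypothyroid WT, and 3.05-fold lower in hyperthyroid than in hypothyroid WT. By mean level, Cyp3a11 had rank 247 among all genes of the table in hypothyroid WT, 848 in hyperthyroid WT and 18 in L-NCOR1ΔID mice. In bulk tissue, fewer cells of a type and less RNA per cell cannot be told apart.

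Cyp3a25, another form of the adult liver, was the second most abundant member in hypothyroid WT. It was 174, 183, 153 and 145 RPKM in hypothyroid WT, a range that overlapped that of Cyp3a11 in the same group. Hyperthyroid WT libraries had 129.9, 139, 146 and 140.1 RPKM. In L-NCOR1ΔID it was 375, 346, 412 and 466 RPKM. The WT groups overlapped and each mutant library was above them, with a mean of 399.8 ± 51.7 RPKM in the mutant and 164 ± 17.5 RPKM in hypothyroid WT, a 2.44-fold difference. It was the steadiest member under T3, with means that differed by 1.18-fold. In hyperthyroid mice it was the most abundant member, and each of its values was above the highest of Cyp3a11.

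Cyp3a13, the member outside the cluster, had the narrowest spread in hypothyroid WT, at 15.4, 15.5, 16.0 and 17.1 RPKM. Hyperthyroid WT libraries had 5.50, 9.63, 6.08 and 8.34 RPKM, below the hypothyroid WT range in each library. In L-NCOR1ΔID it was 55.7, 78.8, 36.8 and 19.5 RPKM, above the hypothyroid WT range in each library. The mutant values spread over 4.04-fold around a mean of 47.7 ± 25.4 RPKM, with replicate 4 closest to the hypothyroid WT libraries. The means were 2.16-fold lower in hyperthyroid WT and 2.98-fold higher in L-NCOR1ΔID mice than in hypothyroid WT. Cyp3a13 is also known as a form of the intestine. The enterocyte genes Vil1, Lct and Sis were at most 0.121 RPKM in every library, while Fabp2 was 22.2 to 58.7 RPKM.

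Cyp3a59 lay above the hypothyroid WT range in every library of both other groups, as did Cyp3a16. It was 3.63, 5.77, 4.33 and 2.13 RPKM in hypothyroid WT. With T3 it was 17.4, 14.4, 14.8 and 16.8 RPKM. In L-NCOR1ΔID it was 33.1, 40.2, 49.0 and 54.4 RPKM. The 3 groups did not overlap, with means of 3.96 ± 1.51, 15.8 ± 1.497 and 44.2 ± 9.45 RPKM, so that the mean was 3.996-fold higher in hyperthyroid WT and 11.1-fold higher in L-NCOR1ΔID mice. Cyp3a25, with which Cyp3a59 shares much of its sequence, was 31.7 to 68.3 times the level of Cyp3a59 in hypothyroid WT, 7.47 to 9.90 times in hyperthyroid WT and 8.40 to 11.4 times in L-NCOR1ΔID libraries. The part of shared reads in the level of Cyp3a59 was not tested.

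**Figure D1:**
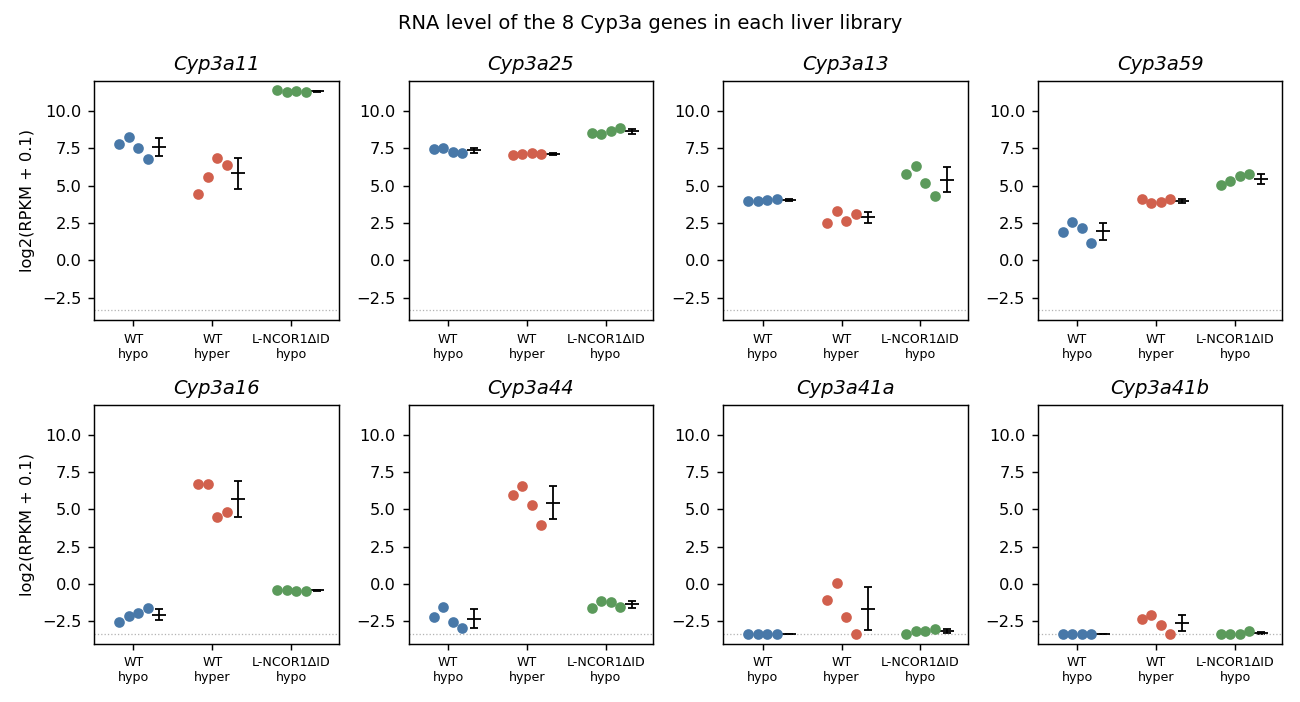
RNA level of the 8 Cyp3a genes as log2(RPKM + 0.1), 1 panel a gene, with 1 point for each of 4 libraries in each of the 3 groups. Black marks give the mean and SD of the log2 values and the dotted line is a value of 0 RPKM. Cyp3a11 and Cyp3a25 are highest in L-NCOR1ΔID, Cyp3a16 and Cyp3a44 in hyperthyroid WT mice.

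Cyp3a16 and Cyp3a44 were near the lower limit in hypothyroid WT and among the abundant transcripts in hyperthyroid WT. Cyp3a16 was 0.074, 0.131, 0.159 and 0.228 RPKM in hypothyroid WT, about 4 to 15 reads a library. Its hyperthyroid WT levels were 105, 104, 22.3 and 27.5 RPKM, about 819 to 4567 reads. The groups were far apart, while within the hyperthyroid group replicates 1 and 2 were higher than replicates 3 and 4. Means were 0.148 ± 0.064 and 64.9 ± 46.2 RPKM, a ratio of 438, in which the denominator rests on 34 reads over the group.

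Cyp3a44 was 0.115, 0.247, 0.070 and 0.027 RPKM in hypothyroid WT, about 2 to 15 reads a library. In hyperthyroid WT it was 61.7, 93.8, 38.9 and 15.7 RPKM. Again replicates 1 and 2 were higher than replicates 3 and 4, and the ratio of the means (52.5 ± 33.3 to 0.115 ± 0.0952 RPKM) was 458 on 28 reads in hypothyroid WT. In the 2 hyperthyroid libraries with the highest Cyp3a16 the level of Cyp3a11 was lowest. Cyp3a16 was 485% and 219% of Cyp3a11 in replicates 1 and 2, and 19.4% and 33.2% in replicates 3 and 4.

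In L-NCOR1ΔID mice both genes were under 1 RPKM. Cyp3a16 was 0.656, 0.656, 0.626 and 0.629 RPKM, about 42 to 46 reads a library, which was above each hypothyroid WT library. Cyp3a44 was 0.226, 0.363, 0.336 and 0.251 RPKM and overlapped the hypothyroid WT range. The mutant libraries with these values also held the highest Cyp3a11, and Cyp3a16 was 0.0245% to 0.0263% of Cyp3a11 in all 4 of them, compared to 0.0330% to 0.212% in hypothyroid WT. Of all stretches of 50 bases in Cyp3a16, 103 also occurred in Cyp3a11, and of those of 100 bases 2 did. The part of Cyp3a11 reads in the level of Cyp3a16 in the mutant was not tested.

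Cyp3a41a and Cyp3a41b were listed at 0 in all 4 hypothyroid WT libraries. In hyperthyroid WT, Cyp3a41a was 0.368, 0.950, 0.114 and 0 RPKM, about 73 reads over the group. Cyp3a41b was 0.097, 0.136, 0.046 and 0 RPKM, about 14 reads over the group. Both genes were highest in replicate 2 and at 0 in replicate 4, the library with the lowest Cyp3a44. Against a floor of 3 reads over the hypothyroid WT group, scaled to depth, Cyp3a41a was 32.4-fold higher and Cyp3a41b 6.21-fold higher in hyperthyroid WT. Without replicate 2, which held 49 of the 73 reads of Cyp3a41a, the ratio was 14.3-fold on 24 reads, and that of Cyp3a41b was 4.18-fold, an alternative chosen after seeing the data. In L-NCOR1ΔID they had 4 reads and 1 read over the group, so that no difference from hypothyroid WT was detectable at this depth. A floor of this kind covers counting error in hypothyroid WT only. It covers neither the counting error of the hyperthyroid reads nor the spread between mice.

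Cyp3a57, which is outside the group of 8, was 0 to 0.121 RPKM in hypothyroid WT, 0 to 0.076 RPKM in hyperthyroid WT and 0.155 to 0.166 RPKM in L-NCOR1ΔID, at most 11 reads a library.

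The summed level of the 8 genes was 273 to 506 RPKM in hypothyroid WT, 291 to 409.7 RPKM in hyperthyroid WT and 2958 to 3136 RPKM in L-NCOR1ΔID mice. The WT groups overlapped in this sum, although their members differed. Cyp3a11 made up 39.5% to 59.5% of the sum in hypothyroid WT, 6.34% to 33.6% in hyperthyroid WT and 82.1% to 85.2% in L-NCOR1ΔID. Cyp3a16 and Cyp3a44 were each at most 0.0836% of the sum in hypothyroid WT. In hyperthyroid WT they made up 18.05% ± 11.9 and 14.4% ± 7.66 (mean ± SD, n = 4), and in L-NCOR1ΔID each was at most 0.0222%.

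**Figure D2:**
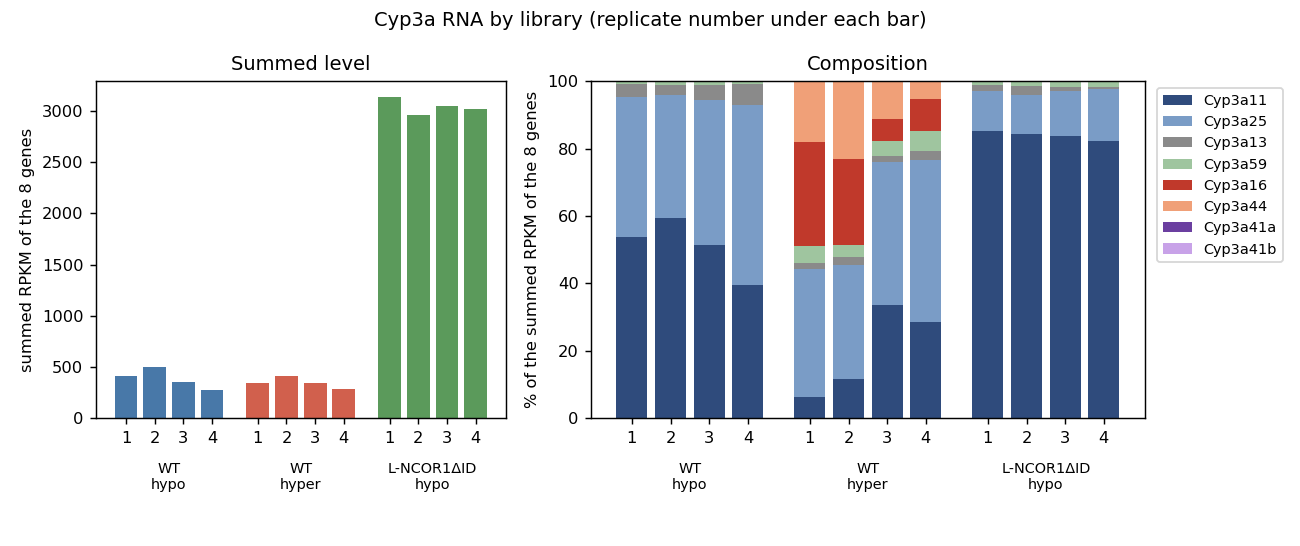
Summed RPKM of the 8 Cyp3a genes in each of 12 libraries (left, bars from 0) and the percent of this sum in each gene (right), with the replicate number under each bar. The sum is 2958 to 3136 RPKM in L-NCOR1ΔID and at most 506 RPKM in the WT libraries, and Cyp3a16 and Cyp3a44 take a visible share in hyperthyroid WT only.

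RPKM is per length, so that the order of levels can be read within each group, apart from the Cyp3a41 genes. The study used uniquely aligned reads, and most of the sequence of these genes is shared. Their levels may therefore be understated, and their place in the order is uncertain. In hypothyroid WT it was Cyp3a11, Cyp3a25, Cyp3a13, Cyp3a59, Cyp3a16 and Cyp3a44, with the Cyp3a41 genes at 0. The ranges of Cyp3a11 and Cyp3a25 overlapped, as did those of Cyp3a16 and Cyp3a44. In hyperthyroid WT it was Cyp3a25, Cyp3a11, Cyp3a16, Cyp3a44, Cyp3a59, Cyp3a13, Cyp3a41a and Cyp3a41b. Here only Cyp3a25 over Cyp3a11, Cyp3a59 over Cyp3a13 and Cyp3a13 over Cyp3a41a were apart in every library. In L-NCOR1ΔID it was Cyp3a11, Cyp3a25, Cyp3a13, Cyp3a59, Cyp3a16, Cyp3a44, Cyp3a41a and Cyp3a41b, where the ranges of Cyp3a13 and Cyp3a59 and those of the Cyp3a41 genes overlapped.

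To set the members beside all other genes, limma was fitted to log2(RPKM + 0.1) in each comparison, and genes entered if 4 or more of the 8 libraries reached 0.1 RPKM. For T3, 13941 genes were tested, and a gene counted as called if its adjusted p was below 0.01 and its log2 difference exceeded 1 in either direction. By this rule 8.28% of the genes were called higher and 3.47% lower in hyperthyroid mice, and 46.6% had groups that did not overlap. Of the 8 Cyp3a genes, 6 passed the filter, 3 were called higher (Cyp3a16, Cyp3a44 and Cyp3a59) and 1 lower (Cyp3a13). The groups of these 4 did not overlap. The Cyp3a41 genes did not pass the filter, and Cyp3a16 and Cyp3a44 reached 4 libraries only with those of hyperthyroid mice. The family was picked from these values, so that nothing is read from the counts.

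On this log2 scale, the difference between hyperthyroid and hypothyroid WT was 7.72 ± 0.52 for Cyp3a16 and 7.76 ± 0.52 for Cyp3a44 (value ± SE, 4 against 4 libraries). It was 2.05 ± 0.25 for Cyp3a59, -0.23 ± 0.09 for Cyp3a25, -1.14 ± 0.16 for Cyp3a13 and -1.76 ± 0.50 for Cyp3a11. The differences of Cyp3a16 and Cyp3a44 depend on the pseudocount, and were 5.51 and 5.33 with a pseudocount of 1. The median difference of all genes tested was 0.23, and with the libraries rescaled to a median gene ratio of 1 the values were 7.54, 7.58, 1.81, -0.47, -1.38 and -2.004 in the same order. Cyp3a11 was called lower with this scaling, with all 12 libraries in 1 fit and without hyperthyroid replicate 3. Cyp3a13 was not called with all 12 libraries in 1 fit.

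For L-NCOR1ΔID, 13790 genes were tested, and a gene was called at an adjusted p under 0.01 in either direction. By this rule 0.725% of the genes were called higher and 0.544% lower, and 13.1% had groups that did not overlap. Again 6 of the 8 Cyp3a genes passed the filter, 4 were called higher (Cyp3a11, Cyp3a16, Cyp3a25 and Cyp3a59) and none lower. As with T3, nothing is read from these counts, and Cyp3a16 and Cyp3a44 reached the required 4 libraries only with those of the mutant. The groups of 5 members did not overlap, these 4 and Cyp3a13. Both comparisons use the same 4 hypothyroid WT libraries, and therefore share their error.

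The log2 difference between L-NCOR1ΔID and hypothyroid WT was 3.74 ± 0.27 for Cyp3a11 (value ± SE), with a 95% interval of 3.13 to 4.34. It was 3.50 ± 0.28 for Cyp3a59, 1.62 ± 0.21 for Cyp3a16, 1.39 ± 0.36 for Cyp3a13, 1.28 ± 0.12 for Cyp3a25 and 0.96 ± 0.31 for Cyp3a44. The interval of Cyp3a13, 0.59 to 2.20, was the widest of these 6, and without L-NCOR1ΔID replicate 4 it was called higher. The call of Cyp3a16 was lost with all 12 libraries in 1 fit and in 5 of 8 fits that left out 1 library (without hypothyroid WT replicate 2 or 3, or L-NCOR1ΔID replicate 1, 2 or 3). With a pseudocount of 1 its difference was 0.52. Cyp3a44, at 0.96, had 0.22 with this pseudocount.

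**Figure D3:**
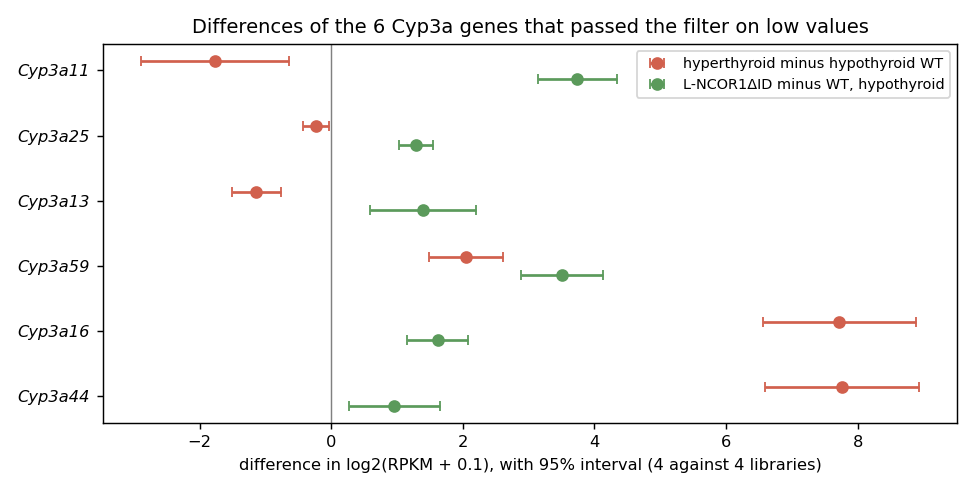
Difference in log2(RPKM + 0.1) for the 6 Cyp3a genes that passed the filter, hyperthyroid minus hypothyroid WT (red) and L-NCOR1ΔID minus WT in hypothyroid mice (green), with 95% intervals from limma and 4 against 4 libraries. Cyp3a11, Cyp3a13 and Cyp3a25 lie below 0 in the first and above 0 in the second comparison, and Cyp3a16 and Cyp3a44 lie farthest from 0 in the first.

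Acetylated regions are given by the deposited list of 37200 regions, in which regions of H3K9Ac and H3K27Ac in hypothyroid and hyperthyroid WT mice were merged. It holds positions and no value per mouse, so that no change of acetylation is given here. Within the cluster 25 regions of 1000 to 13832 bp covered 12.5% of the sequence. The TSS of 6 members lay inside a region. Those of Cyp3a13, Cyp3a16, Cyp3a44 and Cyp3a25 lay in regions of 13125, 7068, 7112 and 8751 bp, and those of Cyp3a11 and Cyp3a59 in regions of 4709 and 3126 bp. The TSSs of Cyp3a41b and Cyp3a41a lay 4.35 and 4.47 kb from the nearest region, of 2292 and 1488 bp, which was inside the gene. The upstream stretches of Cyp3a41b and Cyp3a41a shared 249 of 250 bases, and the study used uniquely aligned reads. A region at these starts may therefore be missed, which was not tested. The TSS lay inside a region in 93.0% of 9269 protein-coding genes with a mean of at least 1 RPKM over the 12 libraries, and in 22.8% of 9319 genes below that. Cyp3a16 and Cyp3a44 are among the former by their hyperthyroid libraries. The Cyp3a41 genes are among the latter, by levels that shared sequence makes uncertain.

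The promoter stretch of Cyp3a16 shown above, at chr5:146230593-146230842, lay within the region from 146223957 to 146231024. That of Cyp3a44, at chr5:146617451-146617700, began within the region from 146610550 to 146617661 and ran past its end. Acetylated regions covered 33.3% of the gene body of Cyp3a16 and 34.2% of that of Cyp3a44, 17.3% of Cyp3a25, 17.0% of Cyp3a11, 36.9% of Cyp3a13 and 4.05% of Cyp3a59. For Cyp3a41a and Cyp3a41b the share was 9.54% and 8.80%, where regions in shared sequence may be missed.

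**Figure D4:**
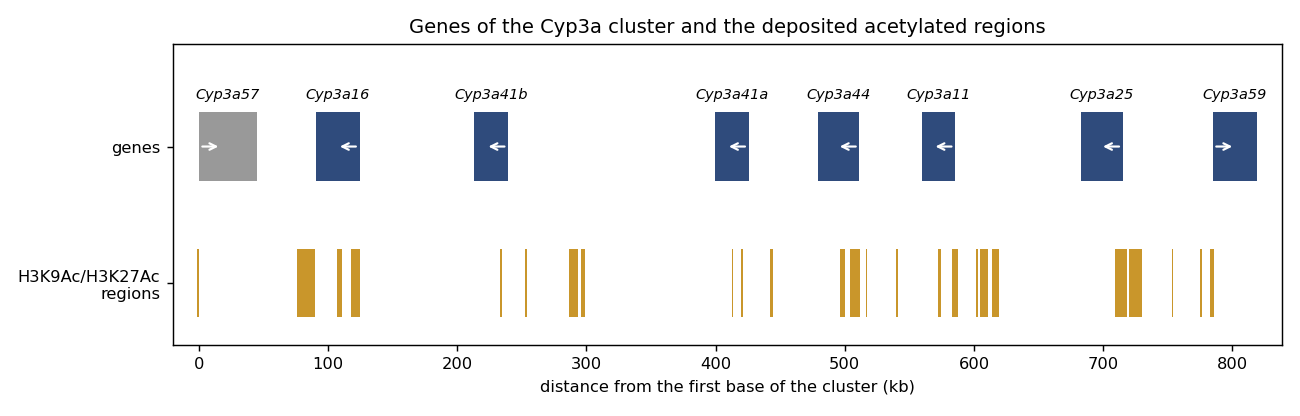
Genes of the Cyp3a cluster (upper row, arrows give the direction of transcription, Cyp3a57 in grey) and the deposited regions with H3K9Ac or H3K27Ac (lower row) over 818.7 kb, by distance from the first base of the cluster. Regions lie over the start of Cyp3a16, Cyp3a44, Cyp3a11, Cyp3a25 and Cyp3a59. None is listed over that of Cyp3a41a and Cyp3a41b, where near-identical sequence may hide a region.

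The nearest genes with at least 0.1 RPKM on either side of the cluster were Zfp655, 98.0 kb away, and Rnf6, 95.9 kb away. Zfp655 was 3.70 ± 0.253, 4.36 ± 1.07 and 4.06 ± 0.324 RPKM in the hypothyroid WT, hyperthyroid and mutant groups and was not called in either comparison. Rnf6, a ubiquitin ligase, was 13.01 ± 0.768, 17.7 ± 1.63 and 13.1 ± 1.92 RPKM. Its log2 difference of 0.44 with T3 (limma adjusted p = 0.0024) did not reach the size required for a call. Beside Cyp3a13 lay Pilrb2, 21.2 kb away, which rose with T3 from 0.165 ± 0.0863 RPKM to 0.691 ± 0.235 RPKM (1.58 on the log2 scale, limma adjusted p = 0.0019), and Gjc3, 32.2 kb away, which was not called in either comparison.

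The genes whose pattern was most like that of a member were taken by Pearson's r of log2(RPKM + 0.1) over the 12 libraries, which fall into 3 groups, so that r mostly reflects the order of the groups. For Cyp3a11 these were Pop4, Ces2a and Gstm3 (r = 0.96, 0.96 and 0.95). For Cyp3a25 they included Tspyl4 and Pgrmc2 (0.96 and 0.95), and for Cyp3a13 they were Coq8b, Eif4a2 and Gpx6 (0.97, 0.96 and 0.95). Cyp3a59 had lower values, with Bst2, Lamtor3 and Lta4h at 0.93, 0.93 and 0.92. Cyp3a16 and Cyp3a44 shared Ctsc (0.99 for both) and Pfkfb4 (0.99 for both), and the third gene was Stat5b for Cyp3a16 (0.99) and Asap2 for Cyp3a44 (0.99).

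Regulators of the family outside it were tested in the same fits. Nr1i3, which encodes the constitutive androstane receptor (CAR), was lower in both comparisons. With T3 it fell from 173 ± 25.5 RPKM to 44.4 ± 8.81 RPKM (-1.97 on the log2 scale, limma adjusted p = 2.3e-05) and was 81.7 ± 6.06 RPKM in L-NCOR1ΔID (log2 fold change -1.07, limma adjusted p = 0.0014). All libraries of hyperthyroid WT and L-NCOR1ΔID were below all hypothyroid WT libraries for this gene. Nr1i2 was 36.2 ± 1.88 RPKM in hypothyroid WT, 27.8 ± 2.62 RPKM in hyperthyroid WT and 42.9 ± 7.48 RPKM in L-NCOR1ΔID, with log2 differences of -0.38 (limma adjusted p = 0.0040, under the size required) and 0.23 (limma adjusted p = 0.34). In total 2 of 10 regulators fell with T3, Nr1i3 and Nr0b2, an atypical nuclear receptor without a DNA-binding domain (-1.11, limma adjusted p = 0.0025). The call of Nr0b2 was lost without hyperthyroid WT replicate 1. In L-NCOR1ΔID, Nr1i3 was the only regulator of 10 that passed the test.

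Redox partners and genes of haem supply were lower or not called. Of 6 genes in the table, Cyb5a, which encodes cytochrome b5, fell with T3 from 1171 ± 107 RPKM to 454 ± 16.7 RPKM (-1.36 on the log2 scale, limma adjusted p = 1.8e-05). Por, the P450 oxidoreductase, was 212 ± 19.5 RPKM in hypothyroid WT, 181 ± 37.8 RPKM in hyperthyroid WT and 362 ± 161 RPKM in L-NCOR1ΔID and was not called in either comparison (limma adjusted p = 0.18 and 0.22). Alas1, which encodes the first enzyme of haem synthesis, was not called in either comparison (log2 differences -0.95 and 0.32, limma adjusted p = 0.015 and 0.69). No gene of this list was called in L-NCOR1ΔID.

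Of 11 genes outside the family that are known to respond to PXR or CAR, 4 rose in L-NCOR1ΔID mice, none fell and 7 were not called, where 0.725% of all genes were called higher. Cyp2c55, another P450, rose from 2.17 ± 1.84 RPKM to 19.1 ± 5.59 RPKM (3.40 on the log2 scale, limma adjusted p = 0.0084). Slco1a4, a transporter of organic anions, rose by 1.48 (limma adjusted p = 0.0038), Ces2a, a carboxylesterase, by 1.47 (limma adjusted p = 0.00059) and Papss2, which makes the sulfate donor for sulfation, by 1.30 (limma adjusted p = 0.00050). For each of these 4 genes the mutant libraries were all above the hypothyroid WT libraries. Cyp2b10, the classical target of CAR, was 29.1 ± 14.7 RPKM in the mutant and 14.0 ± 3.21 RPKM in hypothyroid WT (limma adjusted p = 0.12). The call of Cyp2c55 was lost in 7 of 8 fits that left out 1 library (range of adjusted p over all alternatives 0.0030 to 0.030), and that of Slco1a4 in 4 of them. Only 2 genes of the list rose without hypothyroid WT replicate 3 or 4, or without L-NCOR1ΔID replicate 1 or 3. With replicate number as a block in the fit only 1 rose, Cyp2c55, and the calls of Slco1a4, Ces2a and Papss2 were lost. The list was written with earlier results of these data known, so that its counts are a description. With T3, 1 gene of this list rose (Papss2, 2.53) and 3 fell. These were Abcc3, an exporter of conjugates (-4.92, limma adjusted p = 2.4e-06), Gsta1 (-4.23, limma adjusted p = 6.4e-05) and Gstm1 (-2.71, limma adjusted p = 2.8e-05), which encode glutathione transferases. Gsta1 reached 0.1 RPKM in only 2 hyperthyroid libraries, and its difference was -5.05 to -2.16 over the alternatives. With the libraries rescaled, and without hyperthyroid WT replicate 4, 6 genes fell. The median log2 difference of the list was 0.89 in L-NCOR1ΔID and -1.01 with T3, beside 0.03 and 0.23 for all genes tested.

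Genes known to be higher in female mouse liver moved in both directions with T3. Of 15 such genes, 8 rose, 3 fell and 4 were not called. The 8 were Cyp17a1 (7.37), Sult3a1 (6.22), Slc22a27 (5.52), Abcd2 (3.63), Cux2 (3.203), Sult2a1 (3.05), Prom1 (3.04) and A1bg (2.82), given as log2 fold changes. Only Cyp17a1 and Abcd2 of these were at 0.1 RPKM or more in all 4 hypothyroid WT libraries. The other 6 reached the 4 libraries required for the test only with hyperthyroid ones, and their fold changes depend on the pseudocount. Cyp17a1, a steroid hydroxylase, rose from 1.32 ± 0.885 to 212 ± 83.3 RPKM (limma adjusted p = 9.1e-06). It was 315, 179.6, 119.6 and 235 RPKM in hyperthyroid replicates 1 to 4 and at most 2.45 RPKM in hypothyroid WT. Among those that fell were Acot3 (-5.77) and Slc22a26 (-1.69), the latter of which was called in 3 of 15 alternatives. Acot3 reached 0.1 RPKM in only 2 hyperthyroid libraries and Slc22a26 in 1, and these sizes also depend on the pseudocount. Over the alternatives the difference of Acot3 was -6.56 to -3.55. With a pseudocount of 1, 6 genes rose and 2 fell, and without hyperthyroid WT replicate 3, 5 rose and 2 fell. Of all genes tested, 8.28% were called higher and 3.47% lower. Of 11 genes known to be higher in male mouse liver, 5 fell with T3, namely Cyp4a12b (-7.06), Cyp4a12a (-4.33), Mup20 (-2.74), Cyp2d9 (-2.32) and Gstp1 (-1.49), while Elovl3 (3.37) and Cyp7b1 (1.71) rose. In L-NCOR1ΔID mice no gene was called among the 11 tested genes of the female list and the 11 of the male list. The median log2 difference there was 0.19 for the female and -0.74 for the male list, beside 0.03 for all genes tested. Cyp4a12a (-1.48) was called lower without L-NCOR1ΔID replicate 2. With T3 the median log2 difference was 2.82 for the female and -1.49 for the male list, beside 0.23 for all genes tested. The female median is the value of A1bg, which reached 0.1 RPKM in only 1 hypothyroid WT library. Over the alternatives the difference of A1bg was 1.05 to 3.89, so that the size of this median is uncertain.

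**Figure D5:**
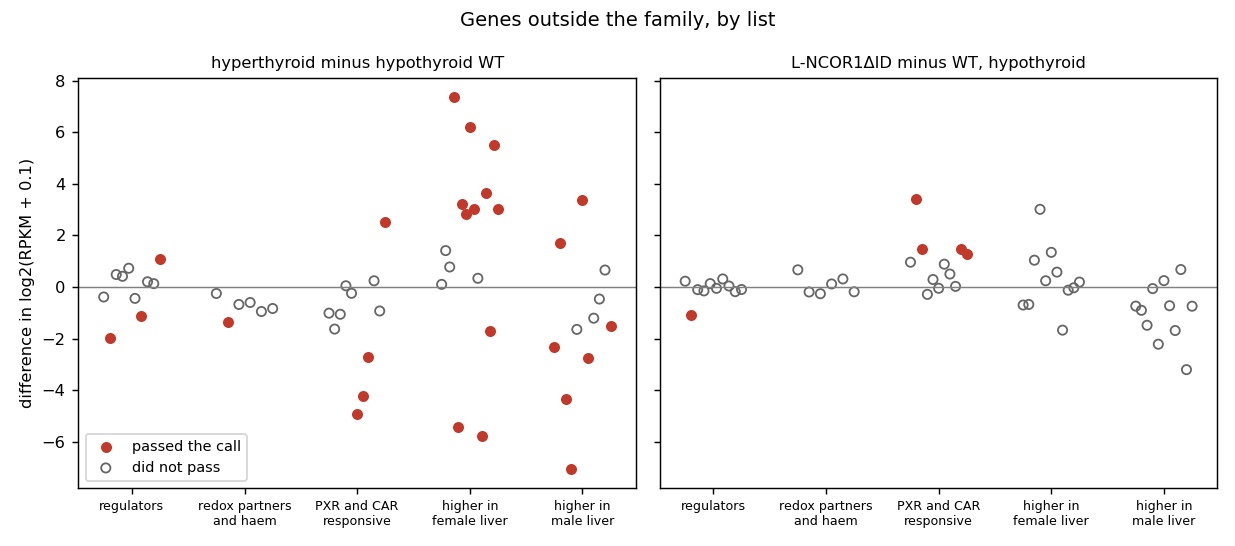
Differences in log2(RPKM + 0.1) of genes outside the family in the 2 comparisons, by list, 1 circle a gene. Filled circles passed the call of that comparison and open circles did not. Filled circles lie on both sides of 0 in the female and male lists with T3, and in the PXR and CAR list 4 lie above 0 in L-NCOR1ΔID.

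Markers of other liver cells moved with T3 as well. The Kupffer cell genes Clec4f, Adgre1 and Cd5l all rose, 3 of 3 in the table, and their summed level was 27.8 to 40.3 RPKM in hypothyroid WT and 94.4 to 148 RPKM in hyperthyroid WT. In L-NCOR1ΔID the sum was 34.0 to 73.7 RPKM and none of the 3 was called. Of 4 hepatocyte genes, Alb and Ttr fell with T3 (log2 fold change -1.16 and -1.55), while Hnf4a was 182 ± 18.1 RPKM in hypothyroid and 243 ± 11.9 RPKM in hyperthyroid WT (0.42, limma adjusted p = 0.0041, under the size required) and Apoa1 was not called (0.12, limma adjusted p = 0.66). The summed level, most of which was Alb, was 35671 to 47209 RPKM in hypothyroid WT, 17681 to 25656 RPKM in hyperthyroid WT and 29777 to 33120 RPKM in L-NCOR1ΔID. The summed level of 3 endothelial genes was 13.2 to 19.9, 18.5 to 22.9 and 16.3 to 20.6 RPKM in the 3 groups, with none called. One gene each of 4 stellate, 4 cholangiocyte and 3 lymphocyte genes rose with T3, and none was called in L-NCOR1ΔID. The part of a change in cell composition in the levels of the Cyp3a genes was not tested.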

How the data were processed

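Per the labels and the study's methods, the authors used STAR to align the poly(A) RNA reads (build mm9), and deposited RPKM per RefSeq transcript from HOMER. The acetylated regions were called with HOMER and merged by the authors, and carry no value per sample. Tool versions are not given in the sources used here. The first row of each gene was used, and 1 row without a gene name was dropped (its share of a library's summed RPKM did not exceed 0.00079%). Each comparison of 4 against 4 mice was fitted with limma 3.58.1 (R 4.3.3, trend) on log2(RPKM + 0.1), with Benjamini-Hochberg adjustment over all genes that reached 0.1 RPKM in 4 libraries. On simulated data with 200 genes changed by a log2 of 3, 97.5% (T3, 13941 genes) and 94% (L-NCOR1ΔID, 13790 genes) were recovered. Named genes are the members, other Cyp3a rows, the nearest expressed neighbours, the lists, and the 3 genes most alike. Members and lists were chosen with earlier results of these data known. Alternatives were other pseudocounts, filters, scaling, transcripts and fits, and leaving out each library. RPKM cannot divide reads between near-identical genes. Replicates are separate mice. Some named genes are not reported here.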

Additional observations from a re-analysis of the deposited data

Results flagged for a closer look

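Of 27 groups of 4 libraries examined, that is the 8 members and Cyp3a57 in each of 3 groups, 1 held a library far from the others. Cyp3a41b was 0.013 RPKM in replicate 4 of hypothyroid L-NCOR1ΔID and 0 in the other libraries of the group. This is about 1 read. For normally distributed values the rule marks about 1 in 20 groups by chance. That rate does not hold here, since any value is marked if the other libraries are at 0. Groups at 0 in every library cannot be marked.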

How the results depend on the processing

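Of 190 member values under an alternative, 182 moved by less than their spread, 8 moved by more and 0 changed direction. With T3, a pseudocount of 1 gave 894 called genes (575 higher, 319 lower), and rescaled libraries gave 747 higher, 52.3% of all called beside 70.5%, with 2 members lower. For L-NCOR1ΔID, all 12 libraries in 1 fit gave 118 lower. The cause was not tested. Leaving out 1 library gave 1430 to 1583 called genes with T3 (994 to 1139 higher, 383 to 485 lower, 3 members higher, 1 to 2 lower). It gave 67 to 187 called genes in L-NCOR1ΔID (36 to 110 higher, 28 to 77 lower, 3 to 5 members higher, 0 lower). Against 175 with all libraries, the total was 89, 67, 68 and 67 without hypothyroid WT replicates 1, 2, 3 and 4, and 97 and 74 without L-NCOR1ΔID replicates 1 and 3.

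The correlation of deviations of libraries with the same replicate number was -0.12 to 0.12 with T3 and -0.22 to 0.33 for L-NCOR1ΔID. The hypothyroid WT library most alike had the same number only for hyperthyroid replicates 3 and 4 and for L-NCOR1ΔID replicate 1. These values cannot decide whether the numbers pair some of the samples, and the main fits used no pairing. With the replicate block, 45 genes were called in L-NCOR1ΔID (20 higher, 25 lower), with 2 members higher, Cyp3a11 and Cyp3a59. With T3 the block kept the calls of the members. Depth limits Cyp3a41a, Cyp3a41b and Cyp3a57 in all groups, and Cyp3a16 and Cyp3a44 in hypothyroid mice. Shared sequence also limits Cyp3a41a and Cyp3a41b.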
